A study of Mus musculus with 59 samples.

Results

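The spindle, kinetochore and mitotic exit genes described here are 44 mouse genes that act between entry into mitosis and the separation of daughter cells. They were chosen by function, with earlier results of these data known, as 7 groups named for a step of mitosis. Each gene was read from 1 probe set, the one with the highest mean over all 59 arrays. A probe set of its own was found for 43 of the 44 genes, out of 18193 genes measured, and Ccnb1, which encodes cyclin B1, had none under its symbol. Values are log2 expression values from the array normalization method RMA, so a difference of 1 is a change of 1 doubling, and levels are compared between samples within a gene and not between genes.

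The arrays profiled a mouse model of serous epithelial ovarian cancer (SEOC) on the FVB/NJ background, in a previously published set of primary tumors with normal ovarian surface epithelium and a newer set of primary and transplanted tumors. The tumors all carry TgK18G-T121, a transgene expressed from keratin 18 sequences once Cre has acted, whose T121 fragment inactivates the RB family, and they were started by an adenoviral Cre vector put under the ovarian bursa. Passaged tumors grew from fragments of tumor placed under the bursa of syngeneic mice with intact immunity, so that stroma of the recipient is part of each sample. The comparisons asked how far the genes of cell division differ between normal epithelium and tumors, between Brca and p53 genotypes, and between primary tumors and their passages.

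The published set held 3 wild type normal samples and 26 primary tumors. Of these tumors, 14 were labelled B1 fl/fl with K18 tg and p53 fl/fl (Brca1 and p53 deleted), 3 were B1 fl/fl with K18 tg and p53 m/fl (Brca1 deleted, with a p53 missense allele), 5 were B2 fl/fl with K18 tg and p53 m/fl (Brca2 deleted, with the p53 missense allele) and 4 were K18 tg with p53 fl/fl (p53 deleted, Brca genes intact). In the new set, 18 tumors were labelled B1 D/D with K18 tg and cp D/D, here called Brca1-deficient (2 primary, then 4, 4, 4, 2 and 2 at passages 1 to 5), and 12 were labelled K18 D/D with cp D/D, here called Brca1 wild type (3 primary, 4 at passage 1 and 5 at passage 2). The label cp D/D was read as deleted p53 in both of these groups. The paper gives p53 deletion for the lines that share their numbers with the new primary tumors. Passages 3, 4 and 5 held Brca1-deficient tumors only. Neither the mice's ages nor the primary line from which each passaged tumor came was used here. No source used here states whether separate mice gave the normal samples. The p-values therefore measure the spread between these samples and may be too small where tumors share a line.

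Array medians lay between 7.2 and 7.28 in normal samples and between 7.29 and 7.51 in tumors. The arrays of Brca1-deficient passage 3 tumors 65021 and 64644 differed with an SD of only 0.0722 over genes, and those of passage 2 tumors 62803 (labelled Brca1 wild type) and 61362 (labelled Brca1-deficient) with an SD of 0.0803, below the 0.306 between the 2 arrays of tumor 30200, which was profiled in both sets. The 2 passage 5 tumors, 65026 and 65076, also lay closer than that, with an SD of 0.209, and were kept as separate tumors. The first pair was counted once in each mean, and the second pair once in the passaged mean and left out of genotype means, while all arrays entered the fits. The normal samples held signal of other ovarian cells: the 12 oocyte markers averaged 9.49 (range over samples 8.98 to 9.94) there and 5.62 (5.37 to 5.88) in published tumors, and 8 of 10 granulosa, theca and luteal markers were measured, at 10.3 (10.2 to 10.4) against 7.78 (7.01 to 8.73). The epithelial markers averaged 11.7 (11.3 to 12.1) in normal samples and 12.9 (12.01 to 13.2) in published tumors, and the fibroblast markers 11.2 (11.2 to 11.2) and 9.35 (7.72 to 11.1). The part of this cell mixture in the differences from normal was not tested, and in bulk tissue fewer cells of a type and less RNA per cell cannot be told apart.

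In mitosis, the kinetochore, a protein assembly on each centromere, attaches chromosomes to spindle microtubules, and the spindle checkpoint holds the cell in metaphase until every kinetochore is attached. Cyclin-dependent kinase 1 with its cyclins, and the Aurora and Polo-like kinases, drive entry and alignment, and CDC20 then turns the anaphase-promoting complex against securin and cyclin B so that separase can cut cohesin. The chromosomal passenger complex, central spindle motors and the RhoA machinery finish division. Genes of this programme are kept low in resting cells by RB family complexes with MuvB at promoter elements called CHR (TTTGAA) and are activated late in the cycle with the factor NF-Y, which binds CCAAT, and with B-MYB and FOXM1. An ovarian surface epithelium divides rarely except around ovulation.

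Published primary SEOCs had higher levels of 42 of the 43 measured genes than normal epithelium, and none was lower (limma, adjusted p under 0.05 over all genes, where 15% of all genes were higher and 26% lower). The median log2 fold change of the members was 1.77, against -0.11 over all genes. In 32 of 43 members every tumor lay above every normal sample, which held for 5.13% of all genes. Without normal sample 1 the count was 37, and Ect2 (0.37, limma adjusted p = 0.153), Kif2c (0.75, 0.0516), Plk4 (0.29, 0.478) and Spc25 (0.56, 0.107) were among those that then missed the threshold.

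**Figure D1:**
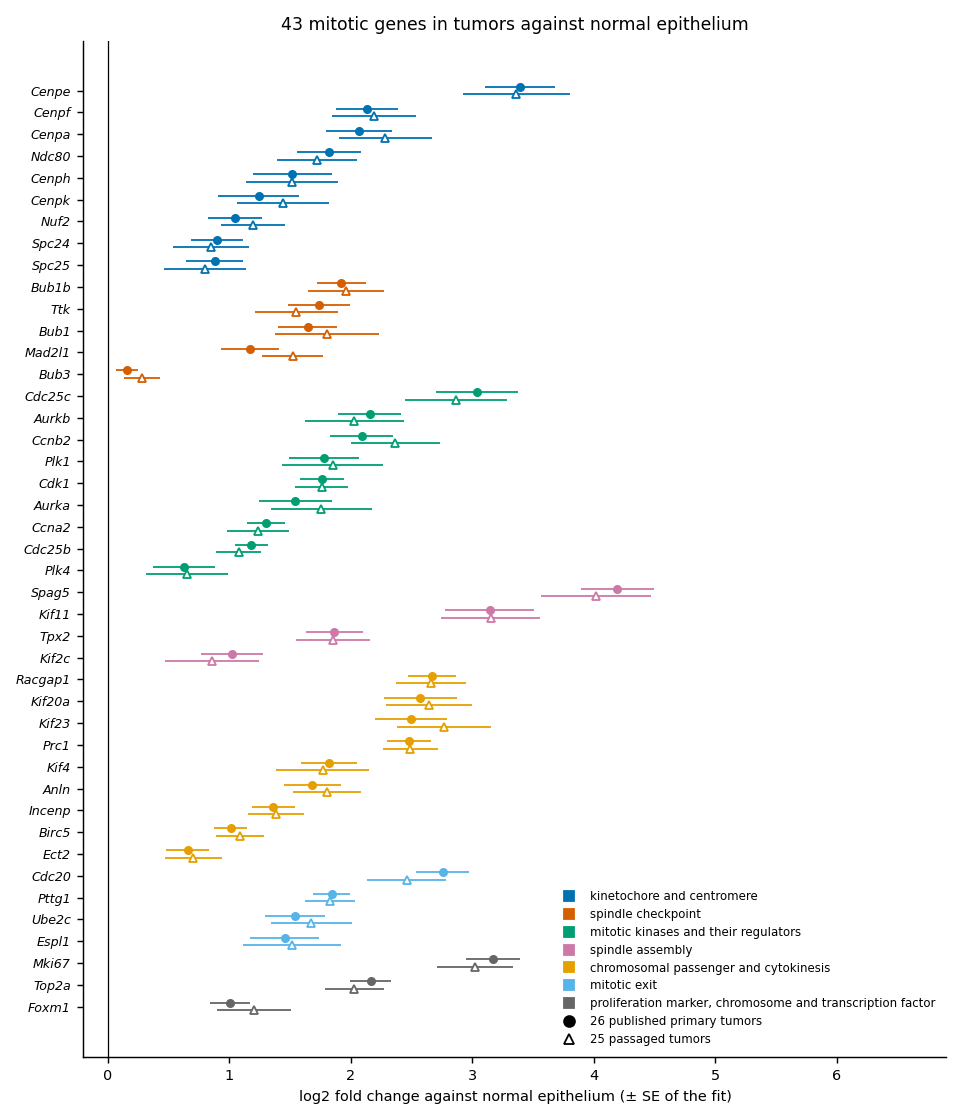
Log2 fold change of each of 43 mitotic genes against normal epithelium, with the standard error of the fit, for 26 published primary tumors (circles) and 25 passaged tumors (triangles), grouped by role in colour. Spag5 lies furthest right at 4.19 and 4.02, and Bub3 furthest left at 0.16 and 0.28.

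Each of the 9 kinetochore and centromere genes was higher in the published tumors, with a median log2 fold change of 1.52. Cenpe encodes the CENP-E kinesin, which carries chromosomes to the metaphase plate. Its values were 6.48, 7.55 and 6.63 in the 3 normal samples and had a lowest value of 9.25, a median of 10.28 and a highest of 11.09 in the 26 tumors. The groups did not overlap, and the log2 fold change was 3.39 (SE 0.29, limma adjusted p = 2.02e-10), a fold of 10.5. Cenpf, a large kinetochore and nuclear matrix protein gene, rose by 2.13, Cenpa, the centromeric histone H3 variant, by 2.07, and Ndc80, the microtubule-binding subunit of the NDC80 complex, by 1.82. Of the partners of NDC80, Nuf2 rose by 1.05, Spc24 by 0.90 and Spc25 by 0.88 (SE 0.23, limma adjusted p = 0.00329). Spc25 was at 9.08, 10.10 and 10.00 in normal samples and from 9.90 to 11.49 in tumors (median 10.62), so the groups overlapped. Cenph and Cenpk, both of the constitutive centromere network, rose by 1.52 and 1.24.

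Of the 5 spindle checkpoint genes, 4 were higher, and the median was 1.65. Bub1b, which encodes the BUBR1 component of the mitotic checkpoint complex, was at 8.03, 8.37 and 8.57 in normal samples and ran from 9.43 to 10.81 in tumors with a median of 10.29. No tumor fell to the normal range, and the log2 fold change was 1.92 (SE 0.20, limma adjusted p = 1.28e-08). The kinase genes Ttk (MPS1) and Bub1 rose by 1.74 and 1.65, and Mad2l1, whose MAD2 product sequesters CDC20, by 1.17. Bub3 encodes the adaptor that docks BUB1 and BUBR1 on kinetochores. It was already high in normal samples, at 11.84, 11.67 and 11.65, against 11.62 to 12.09 (median 11.88) in tumors, a log2 fold change of 0.16 (SE 0.09, limma adjusted p = 0.155). Its 5 probe sets gave log2 fold changes from -0.26 to 1.59, and the gene passed at 0.56 with their mean, at 0.20 with array weights and at 0.89 in the merged table, so its call depends on the probe set and the settings.

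The 9 measured mitotic kinases and regulators were all higher, with a median of 1.77. Cdc25c, whose phosphatase product activates CDK1, was at 6.96, 8.20 and 7.87 in normal samples and from 9.20 to 11.69 (median 10.81) in tumors. The ranges were separate and the log2 fold change was 3.03 (SE 0.34, limma adjusted p = 3.23e-08). Aurkb, the kinase of the chromosomal passenger complex, rose by 2.15, Ccnb2, the gene for cyclin B2, by 2.09, Plk1 by 1.78, Cdk1 by 1.77 and Aurka, the centrosomal Aurora kinase, by 1.54. Ccna2 (cyclin A2) rose by 1.30 and Cdc25b by 1.18. Plk4, the kinase that starts centriole duplication, had the smallest change of the group, with 9.73, 10.47 and 11.01 in normal samples and 10.19 to 11.59 (median 11.12) in tumors. That difference of 0.63 (SE 0.26) sat just inside the threshold at an adjusted p of 0.0488 from limma. It no longer passed in 12 of 21 alternatives, among them array weights (0.19, limma adjusted p = 0.339).

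The 4 spindle assembly genes were higher with a median of 2.50, and among them was the largest change of the members on the probe sets used. Spag5 encodes astrin, a microtubule protein that stabilizes kinetochore attachments and spindle poles. It was at 6.41, 5.86 and 6.37 in normal samples and from 9.43 to 11.34 (median 10.54) in tumors. No tumor came near the normal range, and the difference was 4.19 (SE 0.30, limma adjusted p = 4.36e-12), or 18.3-fold. Other probe sets of Spag5 gave 3.21 and 1.20, and the highest of Ttk and Pttg1 gave 3.89 and 3.87. The order of genes and roles by size thus depends on the probe set. Of all 94 probe sets of the members, 88 had a log2 fold change above 0. Kif11, the kinesin that pushes spindle poles apart, rose by 3.14 and Tpx2, the activator of Aurora A on the spindle, by 1.86. Kif11 was at 6.05 in normal sample 1 and at 8.76 and 9.16 in samples 2 and 3, so the size of its rise leans on sample 1. Kif2c encodes MCAK, which depolymerizes microtubules at faulty attachments, and it was at 8.33, 9.08 and 9.24 in normal samples against 9.01 to 10.51 (median 9.93) in tumors. The samples overlapped, and the difference was 1.02 (SE 0.25, limma adjusted p = 0.00177).

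All 9 chromosomal passenger and cytokinesis genes were higher, with a median of 1.82. Racgap1 encodes the RhoGAP subunit of the centralspindlin complex that organizes the midzone. Values of 8.08, 7.90 and 8.78 in normal samples compared with 9.87 to 11.38 (median 10.99) in tumors, without overlap. The log2 fold change was 2.67 (SE 0.20, limma adjusted p = 9.29e-12). The midzone kinesin genes Kif20a and Kif23 rose by 2.57 and 2.50, Prc1, the microtubule bundler of the midzone, by 2.48, Kif4 by 1.82 and Anln, the anillin scaffold of the contractile ring, by 1.68. Of the passenger complex itself, Incenp rose by 1.36 and Birc5 (survivin) by 1.01. Ect2, the RhoA exchange factor that positions the furrow, was at 10.67, 11.73 and 11.36 in normal samples and from 11.28 to 12.50 (median 11.91) in tumors, a difference of 0.66 (SE 0.18, limma adjusted p = 0.00400).

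The 4 mitotic exit genes were higher with a median of 1.69. Cdc20, the activator of the anaphase-promoting complex, was at 8.72, 9.31 and 8.98 in normal samples and from 10.89 to 12.36 (median 11.81) in tumors. The tumors lay wholly above, by 2.76 (SE 0.22, limma adjusted p = 3.84e-11). Pttg1, which encodes securin, rose by 1.84 and Ube2c, the ubiquitin-conjugating enzyme of the complex, by 1.54. Espl1, the gene of separase, was at 8.0, 7.17 and 6.75 in normal samples and from 7.38 to 9.62 (median 8.80) in tumors, a difference of 1.46 (SE 0.28, limma adjusted p = 1.45e-04) with some overlap. In the last group, Mki67, which encodes the Ki-67 coat of mitotic chromosomes, was at 9.65, 8.38 and 9.44 against 11.31 to 12.74 (median 12.42) and differed by 3.17 (SE 0.22). Top2a, the topoisomerase that untangles chromosomes, rose by 2.16 and the transcription factor gene Foxm1 by 1.01 (SE 0.17, limma adjusted p = 1.70e-05), from 7.66, 7.75 and 8.0 to a range of 8.04 to 9.39 (median 8.87). Other probe sets of Foxm1 gave 2.08, 2.44 and -0.05, so the size of its change depends on the probe set.

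**Figure D2:**
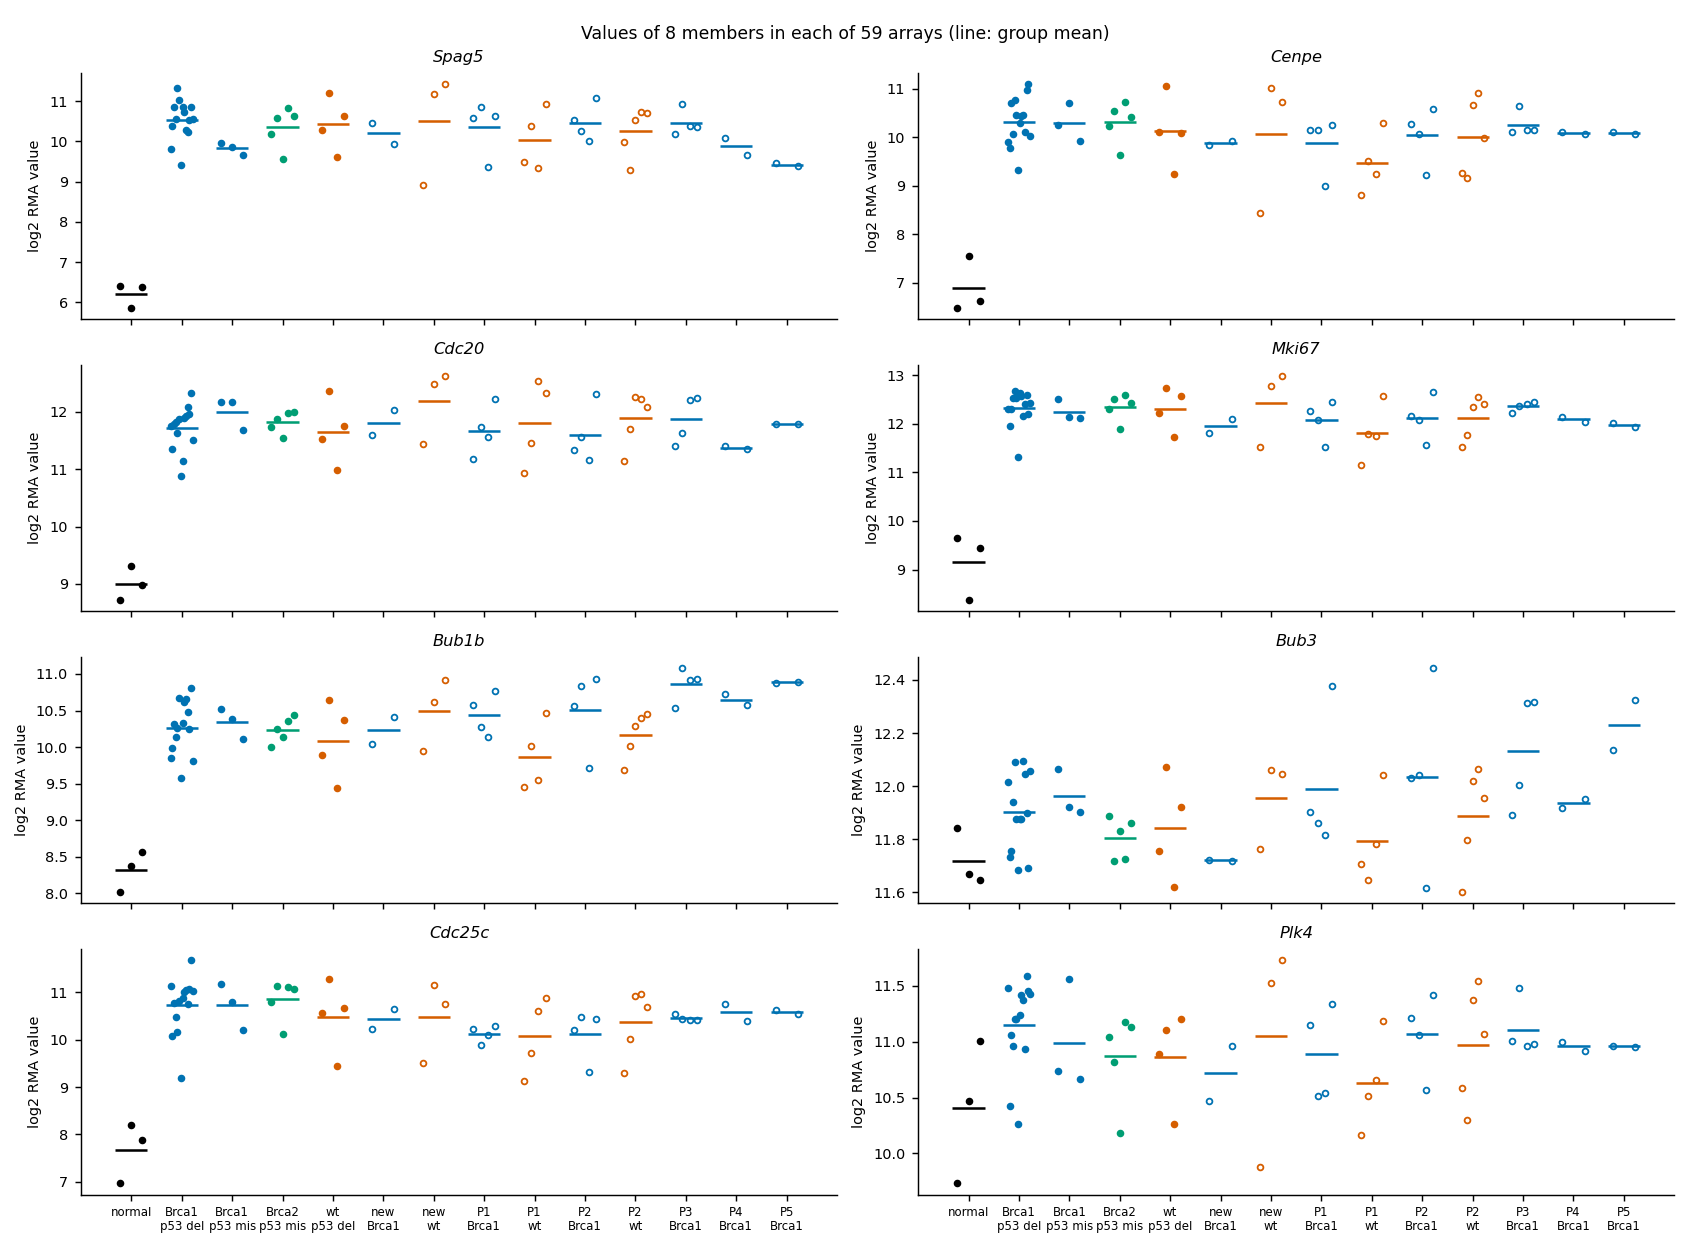
Log2 RMA value of 8 members in each of 59 arrays, by group (normal epithelium, published tumors by genotype, new primary tumors and passages P1 to P5), with a line at the group mean, black for normal, blue for Brca1, green for Brca2 and orange for Brca wild type. Spag5, Cenpe, Cdc20, Mki67, Bub1b and Cdc25c are separate from normal in the published tumors, while Bub3 and Plk4 overlap it.

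The promoters of the members are shown because these genes were high together in the tumors. RefSeq promoter windows of 300 bases (250 before the start given by the promoter entry, mouse build GRCm38.p6) were found for 36 of the 44 genes. Motif positions were counted from that start, which can lie inside the full span of the gene. The motif TTTGAA, read on both strands, was in 25 of these 36 windows (69.4%), against 20.2% of the windows of all genes, and began within 40 bases of the start in 22 of 36 (61.1%) against 4.88%. CCAAT, read on both strands, was in 28 of 36 (77.8%) against 41.1%, and both motifs were in the same window in 22 of 36 (61.1%) against 7.97%. The motifs can overlap by no more than an end letter, and a match is a run of letters and not a measured binding site. The windows of Nuf2, Mad2l1, Plk4, Birc5 and Pttg1 held neither run of letters. Those of Cenpe, Cenph, Cenpk, Bub1, Ccnb1 and Cdc25b held CCAAT but no TTTGAA. The sequences below give 120 bases before and 12 from that start on the strand of the gene. They are from 8 of the members described, all of which hold TTTGAA, so they do not stand for members without it. The start lies inside the gene for Spag5 (which begins at chr11:78301470), Espl1 (begins at chr15:102296254), Mki67 (whose far end is chr7:135716450) and Kif23 (far end chr9:61946810). For Spag5 the whole stretch lies inside. Capitals mark TTTGAA or its complement TTCAAA and CCAAT or its complement ATTGG.
Spag5, chr11:78301471-78301602 (plus strand): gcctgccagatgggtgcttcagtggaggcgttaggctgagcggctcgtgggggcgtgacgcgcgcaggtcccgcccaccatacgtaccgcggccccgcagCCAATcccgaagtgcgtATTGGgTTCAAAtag
Mki67, chr7:135716368-135716499 (minus strand): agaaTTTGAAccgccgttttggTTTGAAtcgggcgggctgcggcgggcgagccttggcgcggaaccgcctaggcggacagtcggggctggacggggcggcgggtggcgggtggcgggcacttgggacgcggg
Cdc20, chr4:118437332-118437463 (minus strand): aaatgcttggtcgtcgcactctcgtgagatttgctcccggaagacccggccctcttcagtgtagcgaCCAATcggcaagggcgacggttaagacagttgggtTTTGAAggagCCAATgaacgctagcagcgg
Espl1, chr15:102296173-102296304 (plus strand): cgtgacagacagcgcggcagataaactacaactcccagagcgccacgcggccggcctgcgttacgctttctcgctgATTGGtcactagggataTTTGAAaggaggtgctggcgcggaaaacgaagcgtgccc
Ccnb2, chr9:70421543-70421674 (minus strand): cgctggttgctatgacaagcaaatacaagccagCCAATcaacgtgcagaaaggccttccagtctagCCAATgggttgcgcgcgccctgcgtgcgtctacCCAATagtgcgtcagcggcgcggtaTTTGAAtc
Kif23, chr9:61946788-61946919 (minus strand): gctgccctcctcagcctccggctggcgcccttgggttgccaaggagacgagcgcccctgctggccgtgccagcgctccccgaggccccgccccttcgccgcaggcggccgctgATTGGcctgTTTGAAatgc
Racgap1, chr15:99651645-99651776 (minus strand): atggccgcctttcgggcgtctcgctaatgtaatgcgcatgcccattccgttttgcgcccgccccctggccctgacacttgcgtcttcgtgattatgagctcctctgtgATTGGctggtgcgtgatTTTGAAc
Ube2c, chr2:164769809-164769940 (plus strand): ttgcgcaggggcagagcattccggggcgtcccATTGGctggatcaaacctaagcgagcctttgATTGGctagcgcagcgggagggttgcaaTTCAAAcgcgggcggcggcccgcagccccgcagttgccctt

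Spag5, Cdc20, Espl1, Racgap1 and Ube2c each had 1 CHR-like run and at least 1 CCAAT in the stretch shown, as did Kif23, and Ccnb2 had 3 CCAAT runs upstream of 1 TTTGAA. Mki67 had 2 TTTGAA runs and no CCAAT in the stretch shown.

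Among 103 other genes of the same machinery, 101 were measured and 71 were higher in published tumors and 1 lower, with a median log2 fold change of 1.05. Of 18 other spindle and midbody genes, all passed the test as higher, led by Ckap2, a spindle microtubule protein gene, at 3.07 (SE 0.22). Of 22 other kinetochore genes 16 were higher, with Cenpi at 2.92, of 9 other checkpoint and cohesion protection genes 7, with Zwilch at 2.68, and of 11 other kinase genes 10, with Nek2 at 2.14. Condensin and cohesin had 11 of 15 higher, with Ncapd2 at 3.35, and the MuvB and pocket protein list 6 of 9, with Rbl1 (p107) at 1.65.

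The subunits of the anaphase-promoting complex, which CDC20 activates and UBE2C serves, were listed with its regulators. Of the 17 genes 3 were higher, which is near the 15% of all genes, namely the subunit gene Anapc5 at 0.72 and the regulators Fbxo5 (the inhibitor EMI1) at 2.06 and Ube2s at 0.66. Anapc7 fell by 0.29, and the median was -0.12, close to that of all genes. The core subunits Cdc16, Cdc23 and Cdc27 had log2 fold changes of -0.16, -0.13 and -0.10, none past the threshold.

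**Figure D3:**
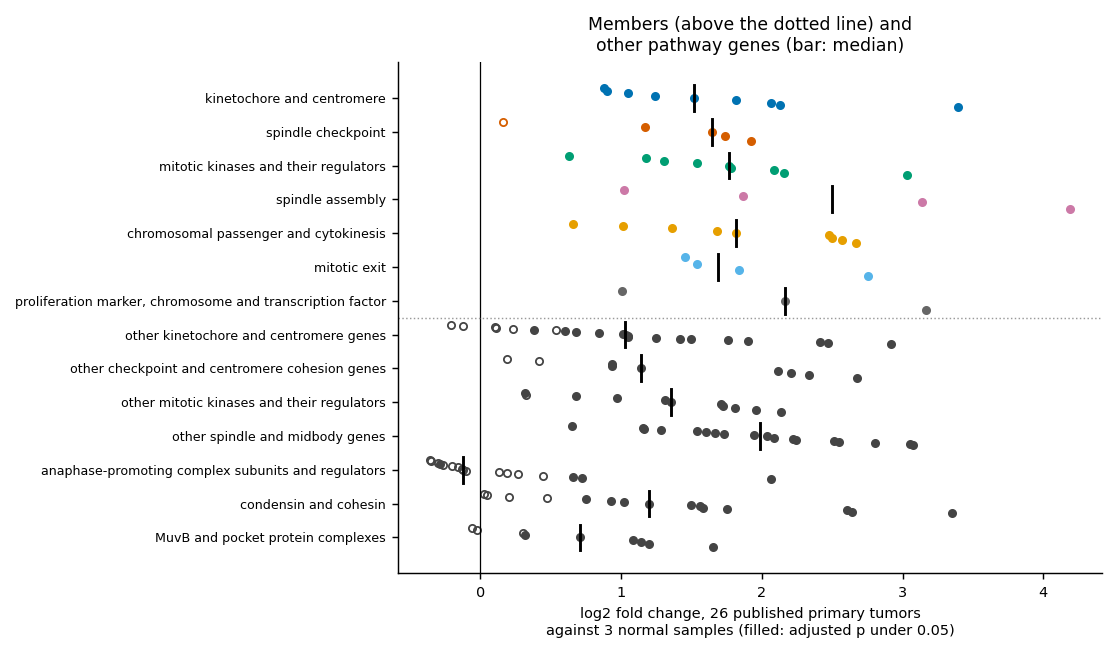
Log2 fold change, 26 published primary tumors against 3 normal samples, of each member by role (above the dotted line) and of other pathway genes by list (beneath it), with filled points for adjusted p under 0.05 and a bar at the median. The anaphase-promoting complex list has its median at -0.12, beside medians of 1.52 to 2.50 in the 7 member groups.

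Against normal epithelium each published genotype had most members higher, in comparisons that share the 3 normal samples. With Brca1 and p53 deleted, 42 of 43 were higher (14.4% of all genes higher, 23.9% lower) with a median of 1.79. With Brca1 deleted and the p53 missense allele, 39 were higher (9.78% higher, 14.8% lower) with a median of 1.81, and Bub3, Cenph, Cenpk and Plk4 did not pass. The Brca2-deleted p53-missense tumors had 41 higher (12.8% higher, 21.8% lower) with a median of 1.78, and tumors with intact Brca genes and deleted p53 had 39 higher (12% higher, 21.4% lower) with a median of 1.56, in which Bub3, Ect2, Plk4 and Spc25 did not pass. No member was lower in any of the 4 comparisons.

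Set against each other, the genotypes of the published set had no member past the threshold in limma. Between Brca1-deleted and Brca-intact tumors with deleted p53, 0 of 43 members passed (0% of all genes). The median difference was 0.16, against 0.03 over all genes, and 40 of 43 were positive. Members varied together between tumors, so these signs are not separate observations. The mean of the members, each centred over all arrays, was -0.09, 0.42, -0.59 and 0.17 in the 4 intact tumors. It ran from -0.70 to 0.55 (median 0.26) in the Brca1-deleted tumors, so the groups overlapped. Aurka was at 9.85, 10.76, 8.87 and 9.89 in the intact tumors and from 9.40 to 11.39 (median 10.34) in the Brca1-deleted tumors, a difference of 0.48 (SE 0.28, limma adjusted p = 0.988). Mad2l1 was at 10.66, 11.00, 9.97 and 10.64 against 10.47 to 11.77 (median 10.97), a difference of 0.45 (SE 0.21, same adjusted p). Both genes overlapped between the genotypes.

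Between the p53 missense and p53-deleted Brca1 tumors, again 0 of 43 passed (0.269% of all genes). Cenpk and Cenph had the largest differences, and both encode neighbours in the CENP-H/I/K arm of the centromere network. Cenpk was at 9.19, 9.53 and 9.14 with the missense allele and from 8.88 to 11.17 (median 10.31) with deletion, a difference of -0.96 (SE 0.31, limma adjusted p = 0.206), which passed at -1.11 with array weights. Cenph was at 9.48, 8.23 and 8.35 against 8.55 to 10.38 (median 9.63), a difference of -0.90 (SE 0.31, limma adjusted p = 0.231). In the Brca2-deleted tumors with the same missense allele Cenpk was at 10.22, 10.15, 9.67, 10.47 and 10.25, all above the 3 Brca1 missense tumors, and Cenph at 9.11, 9.56, 8.98, 9.42 and 9.54. That comparison also had 0 of 43 members past the threshold (0.0165% of all genes), with Cenpk at 0.87 (SE 0.36, limma adjusted p = 0.569) and Cenph at 0.63 (SE 0.36, limma adjusted p = 0.721). The genes lie on 1 chromosome in GRCm38.p6, Cenph at chr13:100759674-100775903 and Cenpk at chr13:104228611-104249622, and copy number was not measured.

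**Figure D4:**
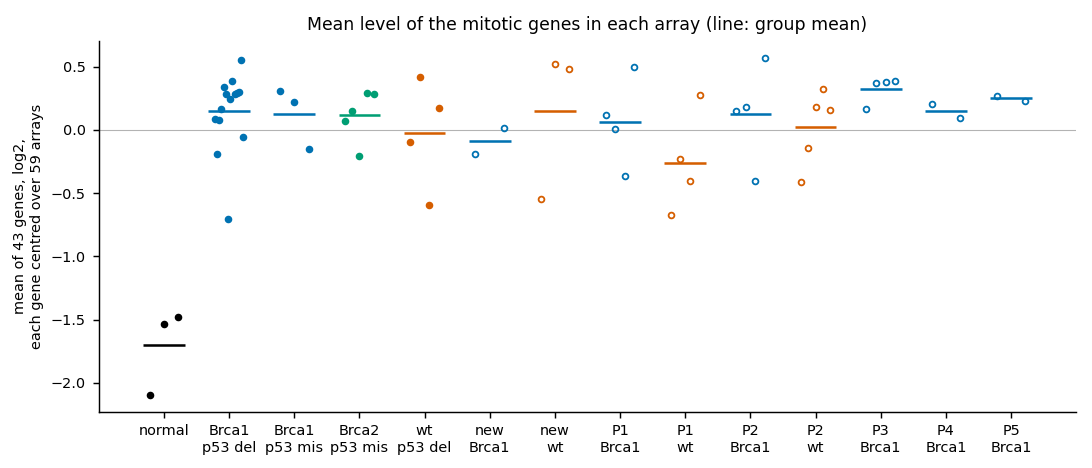
Mean of the 43 members in each of 59 arrays, on a log2 scale with each gene centred on its mean over the arrays, by group, with a line at the group mean. The 3 normal samples lie between -2.09 and -1.48, and the tumors between -0.70 and 0.57.

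The mean of the 43 centred members lay between -2.09 and -1.48 in normal samples, between -0.70 and 0.55 in published tumors, between -0.55 and 0.52 in new primary tumors and between -0.67 and 0.57 in passaged tumors. Within tumors the median SD of the members was 0.42 (n = 54), against 0.36 over all genes, and 33 of 43 members lay above the latter. Spag5 varied most, with an SD of 0.60, and Bub3 least, at 0.19.

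Members also varied with one another. Over 54 tumors, 41 of the other 42 members had a positive Pearson r with Mki67, with a median of 0.637 (Spearman rho 0.585, and r 0.566 without the 2 tumors furthest from the median), where the median over all genes was -0.04. These points share arrays, lines and the proportion of tumor cells, so the values are a description. Within the published tumors the median r was 0.649 (n = 26, rho 0.452, and 0.355 without the 2 furthest tumors, so that much of it rests on them), and within the passaged tumors it was 0.735 (n = 23, rho 0.628, and 0.624 without the 2 furthest). Aurkb followed Mki67 most closely, at 0.867. The exception was Mad2l1, at -0.122 over all tumors, 0.457 in published and -0.374 in passaged tumors.

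Tumor 30200 is both 1 of the 5 new primary tumors and 1 of the published ones, and its 2 arrays entered the comparison of the sets as separate tumors. New primary tumors had 0 of 43 members past the threshold against published primary tumors with deleted p53 (0.357% of all genes). The largest difference was in Incenp, the scaffold of the passenger complex, with 11.35 and 11.56 in Brca1-deficient and 11.26, 12.07 and 12.29 in Brca1 wild type new tumors, against 11.70 to 12.77 (median 12.27) over all published tumors. It was -0.58 (SE 0.18, limma adjusted p = 0.143), and Cenpk followed at -0.40 (SE 0.30, limma adjusted p = 0.597). Without the new array of tumor 30200 the count was also 0.

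The 25 passaged tumors were likewise above normal epithelium in most members. With the set as a covariate, 39 of 43 members were higher and none lower (10.2% of all genes were higher and 17.3% lower), with a median of 1.77, and in 29 of 43 every passaged tumor lay above every normal sample (6.4% of all genes). Spag5 was at 4.02 (SE 0.45, limma adjusted p = 2.51e-10), Cenpe at 3.36 (SE 0.44), Kif11 at 3.15 (SE 0.41) and Mki67 at 3.02 (SE 0.31). The Kif11 difference uses the same normal samples, of which sample 1 was low at 6.05. Bub3 (0.28), Kif2c (0.86), Plk4 (0.65) and Spc25 (0.80) did not pass.

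In a fit that took Brca1 genotype as a covariate, passaged tumors of the new set against its 5 primary tumors had 0 of 43 members past the threshold (0% of all genes, with 1 member and 1179 genes at an unadjusted p under 0.05). Mad2l1 had the largest difference, 0.34 (SE 0.12, limma adjusted p = 0.552), from 10.93, 10.72, 11.46, 11.03 and 11.04 in primary tumors to a range of 10.98 to 11.88 (median 11.41) in passaged tumors. Kif2c was next at -0.25 (SE 0.27, limma adjusted p = 0.982). The paper describes the passaged tumors as derived from matching primary tumors. Line was not in this fit, so spread between lines stayed in its error and can hide a change.

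Across 18 new-set tumors with Brca1 deficiency, counted from primary (passage 0) to passage 5, 6 of 43 members rose with passage number and none fell (8.7% of all genes rose and 6.46% fell), with a median slope of 0.06 against 0.01 over all genes. The count of members is to be read against those shares. Of the 6, Kif23, Kif20a, Racgap1 and Anln belong to the 9 cytokinesis genes, Ccnb2 to the kinases and regulators and Kif11 to spindle assembly. No kinetochore, checkpoint or mitotic exit gene passed in this fit, but that division by role changed with the settings. Without tumors 64644 and 61362, each of a near-identical pair, 10 members rose (9.07% of all genes rose and 6.78% fell). Spc25 (limma adjusted p = 0.0424), Bub1b (0.0470), Espl1 (0.0442) and Ube2c (0.0387) were among them while Kif11 (0.0503) was not. The near match of 61362 is labelled wild type and is outside this fit, and leaving out 61362 alone also gave 10. With array weights 17 rose and 2 fell (22.8% of all genes rose and 16.1% fell).

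Ccnb2 had the steepest slope. It was at 10.56 and 11.20 in primary tumors, 11.28, 11.05, 10.90 and 11.85 at passage 1, 11.60, 11.81, 10.72 and 11.80 at passage 2, 11.91, 11.81, 11.77 and 11.79 at passage 3, 11.95 and 12.01 at passage 4, and 12.19 and 12.10 at passage 5. The 4 tumors of passages 4 and 5 were above each earlier one, and the slope was 0.25 per passage (SE 0.05, limma adjusted p = 0.00283). In the order of the arrays these 4 tumors follow primary tumor 30200, and the run after primary tumor 39877 ends at passage 3. Line was not in the fit. If that order follows line, line and passage number are partly confounded in this and the other slopes. The low passage 2 value belongs to tumor 61362, the array that nearly matches a Brca1 wild type tumor.

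Kif20a, a kinesin of the midzone, was at 10.13 and 10.43 in primary tumors, 10.86, 10.65, 10.29 and 10.64 at passage 1, 10.82, 10.88, 10.13 and 10.65 at passage 2, 11.05, 10.84, 10.57 and 10.56 at passage 3, 11.08 and 11.18 at passage 4, and 11.23 and 11.16 at passage 5. The last 4 values again exceeded the earlier ones, with a slope of 0.17 (SE 0.04, limma adjusted p = 0.00484). Kif23, the kinesin of centralspindlin, was at 10.57 and 10.70 in primary tumors, 11.33, 11.15, 10.39 and 11.60 at passage 1, 11.52, 11.56, 10.62 and 11.73 at passage 2, 11.70, 11.68, 11.35 and 11.34 at passage 3, 11.94 and 11.73 at passage 4, and 11.74 and 11.62 at passage 5. Both passage 4 values lay above those of passages 2 and 3, which passage 5 overlapped, with a slope of 0.21 (SE 0.05, limma adjusted p = 0.0142). Racgap1 was at 10.80 and 11.06 in primary tumors and 11.64 and 11.63 at passage 5, with a slope of 0.15 (SE 0.04, limma adjusted p = 0.0245). Anln and Kif11 each had a slope of 0.13, with adjusted p from limma of 0.0109 and 0.0494.

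Spag5, the member furthest above normal on the probe sets used, had a slope of -0.14 (SE 0.07, limma adjusted p = 0.204). It was at 9.45 and 9.39 at passage 5, with only tumor 57452 of passage 1 lower among these tumors, at 9.37. Cenph had a slope of -0.16 (SE 0.05, limma adjusted p = 0.0581), with 8.64 and 8.37 at passage 5 against 9.29 and 8.93 in primary tumors.

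With passages 1 to 5 alone (8.89% of all genes rose and 6.76% fell), 2 members rose, Ccnb2 (0.23, limma adjusted p = 0.0146) and Kif20a (0.16, 0.0255), and Cenph fell by 0.25 (0.00942). Kif23 (0.17, 0.0967), Racgap1 (0.16, 0.0551), Kif11 (0.14, 0.0837) and Anln (0.10, 0.0752) missed the threshold in this fit, which has 2 fewer tumors, with slopes that stayed positive. Over primary tumors and passages together, 11 members rose without tumor 57454 and 10 without tumor 61362. The shares of all genes in these fits were not counted, so the counts are not read as a result about the members. Markers of other cells moved with passage too: from passage 1 (all 8 tumors, both genotypes) to passage 5 the mean of the T cell markers (5 of 6 measured) went from 5.84 to 6.95, the B cell markers (3 of 4 measured) from 5.58 to 6.49, the macrophage markers from 9.10 to 9.76, the fibroblast markers from 9.55 to 10.3 and the surface epithelium and mesothelium markers from 10.1 to 11.3, while the epithelial markers went from 12.96 to 12.64. Their part in the slopes was not tested. Of the 101 other pathway genes 6 rose with passage, Cdca5 (sororin) most at 0.19, and 5 fell, namely Cenpw by 0.30, Esco2 by 0.20, Pkmyt1 by 0.15, Stag2 by 0.13 and Wee1 by 0.07. These counts are to be read against the 8.7% of all genes that rose and the 6.46% that fell.

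**Figure D5:**
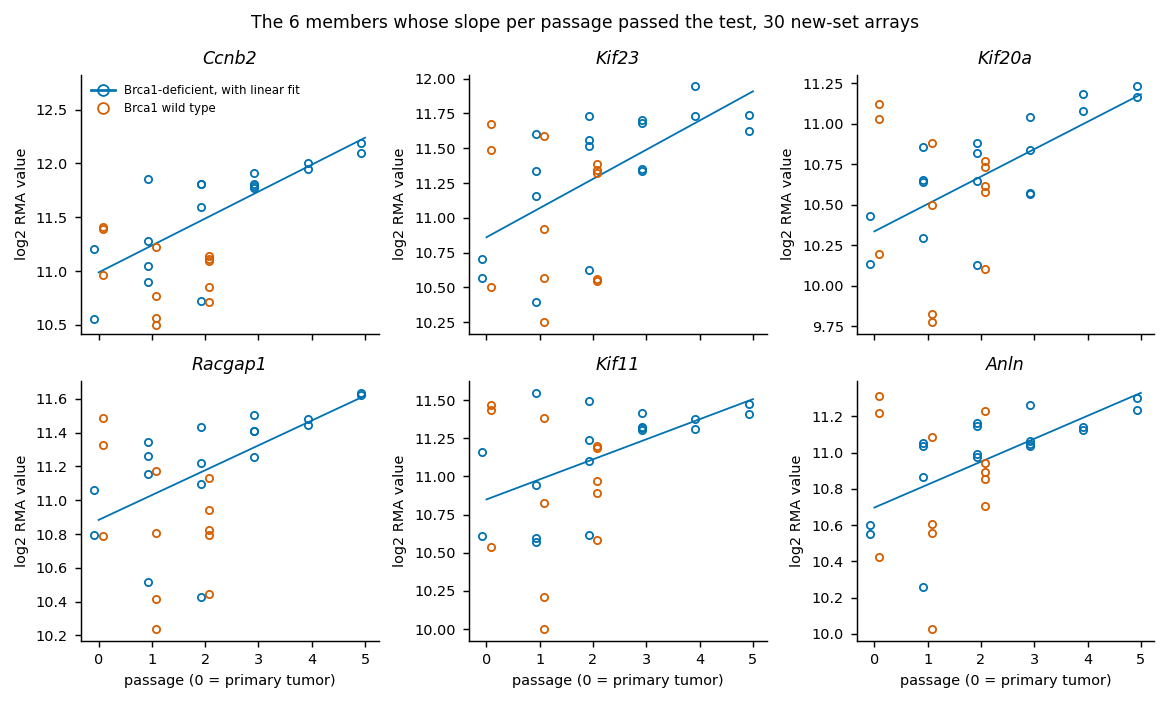
Log2 RMA value of the 6 members whose slope passed the test against passage number (0 for primary tumors) in 30 new-set arrays, blue for Brca1-deficient with the linear fit through them and orange for Brca1 wild type. Ccnb2 goes from 10.56 and 11.20 in the primary Brca1-deficient tumors to 12.19 and 12.10 at passage 5.

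Between the Brca1 genotypes within the new set, in a fit with a term for primary or passaged, 3 of 43 members were higher with Brca1 deficiency and none lower (6.49% of all genes were higher and 4.6% lower), a share of members near that of all genes. The median difference was 0.21, against 0.00 over all genes, and 38 of 43 were positive. Members varied together between tumors, so these signs are not separate observations. Passage and genotype are partly confounded here, since the 8 tumors of passages 3 to 5 are all Brca1-deficient.

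Ccnb2 was at 11.61 ± 0.47 (SD, n = 16) in Brca1-deficient against 11.00 ± 0.30 (SD, n = 11) with wild type Brca1, a difference of 0.58 (SE 0.16, limma adjusted p = 0.0192). At passage 1 it was at 11.28, 11.05, 10.90 and 11.85 with Brca1 deficiency and at 10.50, 10.77, 10.56 and 11.22 without, which overlapped in part. Ube2c was at 12.21 ± 0.32 (SD, n = 16) against 11.75 ± 0.35 (SD, n = 11), a difference of 0.46 (SE 0.15, limma adjusted p = 0.0381). Bub1b was at 10.63 ± 0.30 (SD, n = 16) against 10.19 ± 0.45 (SD, n = 11), a difference of 0.46 (SE 0.15, limma adjusted p = 0.0464). The ranges overlapped in all 3 genes.

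Restricted to passages 1 and 2, where both genotypes were profiled, 0 members passed (1.07% of all genes), with Ccnb2 at 0.50 (SE 0.17, limma adjusted p = 0.160), Bub1b at 0.45 (0.266) and Ube2c at 0.41 (0.344), and a median difference of 0.21. At an unadjusted p under 0.05 there were 4 members, a smaller share than the 15% of all genes. Leaving out single tumors gave from 1 to 8 members, and the share of all genes in those fits was not counted. Ccnb2 passed in 30 of 30 such fits, Ube2c in 19 and Bub1b in 9. In the published set the same genes differed between Brca1-deleted and Brca-intact tumors by 0.31 (Ccnb2), 0.22 (Ube2c) and 0.18 (Bub1b), none past the threshold.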

How the data were processed

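Gene expression was measured on 59 arrays, each 1 mouse sample. The authors deposited a series matrix of log2 values made with RMA (the sources used here do not give its version), and a merged human and mouse table of log2 values, rescaled by the authors, which served as an alternative (35 of the 43 members, 6167 genes). A further 278 sample columns there were left unused. Of 45037 probe sets, 34945 named 1 gene and 932 several, which were left out, and 9160 were unnamed. Groups were compared with limma 3.58.1 (lmFit, eBayes) in R 4.3.3 over 18193 genes, two-sided, with Benjamini-Hochberg adjusted p under 0.05. The scripts were tested on simulated data. The passaged against normal fit took the set as a covariate. Named members were, in each role, those of largest and smallest change against normal, and in each other comparison up to 4 past the threshold or the 2 largest. The members and lists were chosen with earlier results of these data known. Depth does not apply to arrays, whose number limits the precision. Alternatives were the mean of probe sets, genes at or above the median level, eBayes with trend and robust settings, array weights, the merged table, leaving out the near-identical tumors 64644, 62803 and 61362, other passage ranges and covariates, and leaving out single samples. Figures were drawn with matplotlib 3.10.9. Promoter sequences came from RefSeq (GRCm38.p6).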

Additional observations from a re-analysis of the deposited data

Results flagged for a closer look

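Of 120 sets of values, of named members and of the mean of all members in groups of 4 to 10 tumors, 11 held a tumor whose gap to the next exceeded the Dixon critical value. For separate sets chance gives about 1 in 20. These sets share tumors and hold members that varied together, so the flags are not separate observations and that rate is not a fair yardstick. Of the 4 Brca1-deficient passage 1 tumors, tumor 57452 was low in Cenpe (9.003, next 10.14) and Espl1 (7.78, next 8.86), and tumor 57454 was high in Ube2c (12.62, next 11.94) and Bub3 (12.38, next 11.90). Of 4 Brca1 wild type passage 2 tumors, tumor 60514 was low in Spag5 (9.29, next 10.54), Espl1 (7.70, next 8.76), Kif23 (10.56, next 11.32) and Ccnb2 (10.85, next 11.10), and high in Mad2l1 (11.88, next 11.08). Of 5 Brca2-deleted p53-missense tumors, tumor 23172 was low in Kif2c (9.39, next 9.91) and Kif23 (10.47, next 11.10).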

How the results depend on the processing

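No paired analysis was run. The paper describes the new set as matching primary and derived tumors, but the line of each passaged tumor was not used here. By tumor number the groups compared share at most 1 tumor (30200, in the published and the new primary tumors). Under the alternatives, 631 counts of members stayed within 1.5 times the reported count and 31 moved, and no named member changed direction past the threshold, while 31 values for named members gained and 91 lost their call. The p53 missense against deletion comparison had 1 member lower with array weights. The slope per passage had 17 higher and 2 lower with array weights, 1 lower with a filter on genes below the median level, 10 higher without tumors 64644 and 61362, and 2 higher and 1 lower with passages 1 to 5 only. The new-set Brca1 comparison had 5 higher with that filter, 8 with array weights, 5 in the merged table and 0 with passages 1 and 2 only. Except with passages 1 and 2 only, the share of all genes was not counted for these settings or for leaving out single tumors. Leaving out each sample gave 4 to 11 higher and 0 to 1 lower for the slope (1 lower without tumor 60530 or 39877) and 1 to 8 higher for the new-set Brca1 comparison. It gave 1 without any of tumors 57078, 65026, 65076, 56234, 56230, 62803, 57454, 61345, 65021, 64644 or 59232, 6 without 30200 or 32233, 7 without 57452 or 34429 and 8 without 61362. Against normal epithelium leaving out each sample gave 37 to 42 higher for published tumors, 38 to 42, 35 to 39, 35 to 41 and 33 to 40 for the 4 genotypes in the order of the text, and 36 to 41 for passaged tumors.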
